A study of Mus musculus with 4 samples.

Results

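The annexins and S100 proteins described here are 10 genes taken by name from a table of 23420 gene symbols: *Anxa1* to *Anxa6*, *S100a4*, *S100a6*, *S100a10* and *S100a11*. They were chosen with earlier results of these data known. All 10 were present in the files and all 10 passed the filter on low counts, among 16232 genes tested. Annexins are proteins that bind acidic phospholipids of membranes when calcium rises, and they take part in membrane repair, vesicle traffic and the control of inflammation. S100 proteins are small proteins of the EF-hand calcium-binding fold that act as dimers, and several of them bind the amino-terminal tail of an annexin, so that an S100 dimer can bridge annexin molecules on opposed membranes. In the brain, these genes are known from astrocytes, microglia, vessels and meninges as well as from neurons, and several of them rise in reactive glia.

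RNA-seq was performed on bulk lysate of medial prefrontal cortex (PFC) from wild-type mice on the C57BL6/J background, with 2 control samples and 2 *Ash1L* shRNA samples. Control samples came from mice injected with a GFP-carrying AAV9 virus by their labels, which the methods of the study call scrambled shRNA AAV. *Ash1L* shRNA samples came from mice given the GFP-tagged AAV9 with a short hairpin RNA against the histone methyltransferase gene *Ash1l*. The U6 promoter drives the hairpin and has no cell type specificity, and punches were chosen by GFP fluorescence, so infected and uninfected cells of all types are mixed. Mice were 6 to 8 weeks old by the series record and 5 weeks old at injection by the methods. Each sample pooled 3 mice by the methods, while the series record counts 3 *Ash1L* shRNA and 2 control mice.

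Total counts ran from 14251190 to 35764874 per sample, the lowest in control sample 1. The targeted gene *Ash1l* had 245 and 290 CPM (reads per gene after TMM scaling, relative to library size) in control samples 1 and 2, and 216 and 138 CPM in *Ash1L* shRNA samples 1 and 2. Neither *Ash1L* shRNA sample reached the level of a control, and sample 2 was the lower. Its log2 fold change was -0.60 (SE 0.22), with a P of 0.0362 and an adjusted p of 0.275 in edgeR's quasi-likelihood test. *Ash1l* no longer passed P under 0.05 without control sample 1 (-0.71), control sample 2 (-0.48) or *Ash1L* shRNA sample 2 (-0.31), and it was -0.97 without *Ash1L* shRNA sample 1. *Ash1L* shRNA sample 2 stood apart from the other samples in several cell type marker lists. The markers of cortical excitatory neurons were well detected in every sample, with sums over 6 genes of 2412 and 2871 CPM in the control samples and 2217 and 1846 CPM in the *Ash1L* shRNA samples.

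To see how the promoters of the members differ, the region from 250 bases before to 50 bases after the transcription start was read from RefSeq (GRCm38.p6), where 7 of the 10 members had an entry. The AP-1 motif (TGACTCA, which reads TGAGTCA on the other strand) was found in 2 of these 7, compared with 5.20% of all 32851 promoters in that table. *S100a11* held it at 136 and 38 bases before the start, and *Anxa2* held it at 95 bases before the start. The STAT motif (TTCNNNGAA, the same on both strands) was found in 0 of the 7 and in 8.30% of all promoters, and the TATA box (TATAAA, both strands) in 3 of the 7 and in 13.6% of all. A match describes the letters only. The 150 bases upstream of the annotated gene are shown for the members with an AP-1 match. They are also shown for *S100a6* and *S100a4*, near each other on chromosome 3. The log2 fold changes of *S100a6* and *S100a4* differed in sign, but *S100a4* was not past the test and its groups overlapped. All 4 lie on the plus strand, 5′ to 3′, with AP-1 matches in capitals. The windows are chr3:93520338-93520487 for *S100a11*, chr9:69453470-69453619 for *Anxa2*, chr3:90612732-90612881 for *S100a6* and chr3:90603620-90603769 for *S100a4*.
S100a11: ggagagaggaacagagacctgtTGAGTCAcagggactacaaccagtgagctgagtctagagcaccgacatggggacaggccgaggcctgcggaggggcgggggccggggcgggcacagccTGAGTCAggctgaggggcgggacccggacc
Anxa2: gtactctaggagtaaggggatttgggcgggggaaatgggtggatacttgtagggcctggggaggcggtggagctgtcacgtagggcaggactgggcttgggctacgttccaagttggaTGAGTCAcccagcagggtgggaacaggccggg
S100a6: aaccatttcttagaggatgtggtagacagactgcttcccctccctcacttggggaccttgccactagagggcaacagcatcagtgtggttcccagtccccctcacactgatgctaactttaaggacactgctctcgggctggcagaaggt
S100a4: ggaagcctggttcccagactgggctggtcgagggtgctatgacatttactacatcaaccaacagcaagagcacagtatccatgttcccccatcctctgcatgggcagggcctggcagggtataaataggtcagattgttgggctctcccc

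For 9 of the 10 members each *Ash1L* shRNA sample was above each control, and *S100a4* was the exception. Over all genes tested, 26.5% were higher in this way. Since the choice of members was made with earlier results of these data known, shares over all genes are a description and not a test. At the limits of the study, an unadjusted P below 0.05 with a change of 1.2-fold or more, *Anxa3*, *Anxa4*, *Anxa5*, *S100a6* and *S100a11* were UP, 5 of 10 members compared with 8.61% of all genes tested. No member was DOWN, the same limits in the other direction (8.28% of all genes). Leaving out control sample 1 or 2 left 3 or 2 members UP (5.07% and 2.57% of all genes), and leaving out *Ash1L* shRNA sample 1 or 2 gave 7 or 6 (14.36% and 6.25%). The median log2 fold change was 0.80 over the members and 0.00 (-0.003 before rounding) over all genes tested, and the median of the members was 0.38 without *Ash1L* shRNA sample 2. After Benjamini-Hochberg adjustment over all genes, 0 members passed 0.05 in edgeR's quasi-likelihood test, where 0.00616% of genes did. The adjusted p-values of the members ran from 0.234 to 0.488. With DESeq2, the tool of the study, 7 members were UP (6.16% of all genes with a P), and *Anxa3*, *Anxa4* and *S100a6* had adjusted p-values of 0.00173, 0.0220 and 0.0465, compared with 1.53% of genes that passed upward. In bulk tissue, a change in the number of cells of a type and a change in RNA per cell cannot be told apart.

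**Figure D1:**
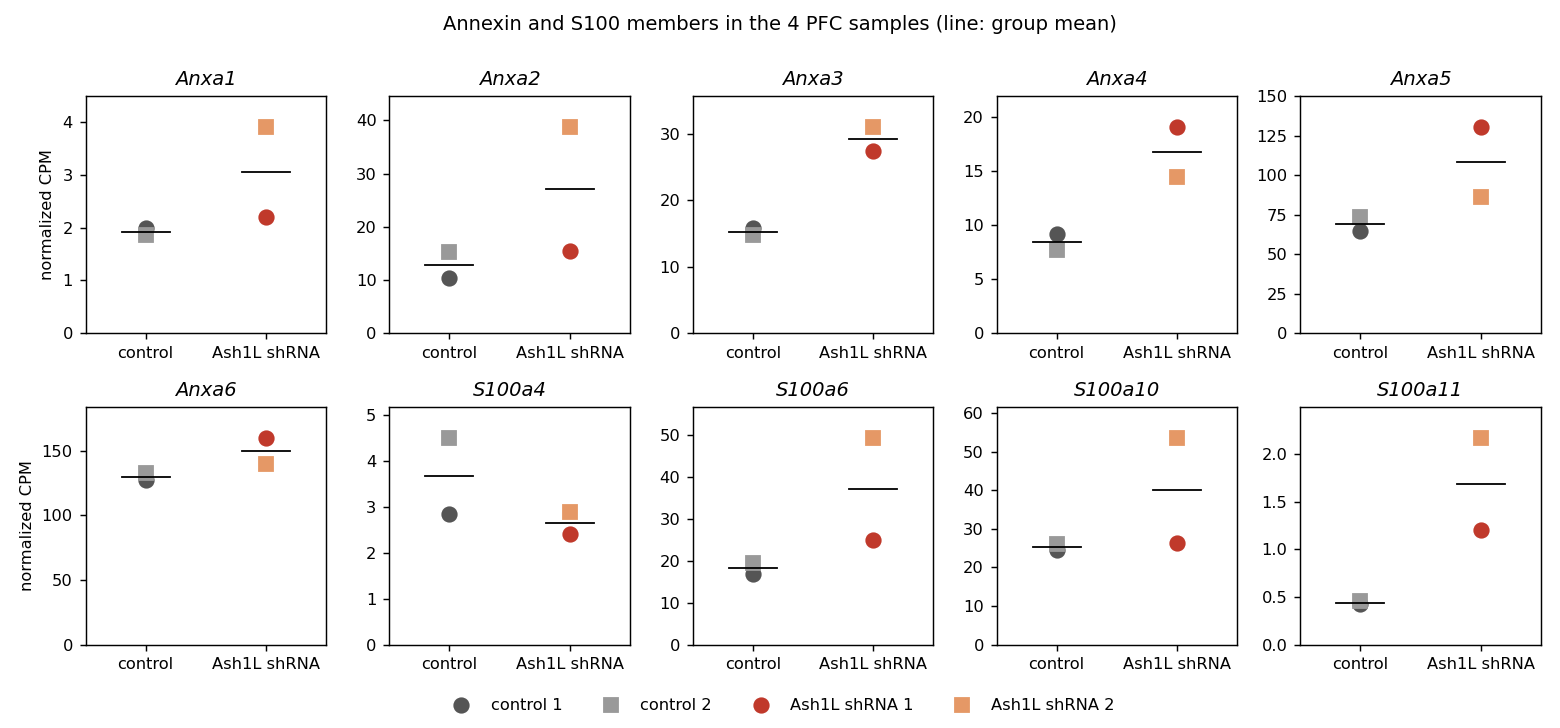
Normalized counts (CPM, linear axes from 0, a separate scale for each gene) of the 10 members, with 1 point for each of the 2 control and 2 *Ash1L* shRNA samples and a line at the group mean. The *Ash1L* shRNA points lie above the control points in every panel but that of *S100a4*. In the panels of *Anxa1*, *Anxa2* and *S100a10*, *Ash1L* shRNA sample 1 is close to the controls.

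Among the 6 annexin members, *Anxa3* had the lowest P. This gene, known in the brain chiefly from microglia, had 15.8 and 14.8 CPM in the control samples and 27.4 and 31.1 CPM in the *Ash1L* shRNA samples. Both *Ash1L* shRNA samples were clearly above both controls and close to each other. Its log2 fold change was 0.94 (SE 0.15), or 1.92-fold, with a P of 0.00051 and an adjusted p of 0.234 in edgeR's quasi-likelihood test. *Anxa3* was UP under all 11 alternatives tried and with any 1 sample left out, between 0.85 and 1.03 on the log2 scale in the latter.

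*Anxa4*, an annexin best known from epithelia, had 9.21 and 7.67 CPM in the control samples and 19.1 and 14.5 CPM in the *Ash1L* shRNA samples. The levels did not overlap, and here sample 1 was the higher. *Anxa4* had a log2 fold change of 1.00 (SE 0.21), with a P of 0.00291 and an adjusted p of 0.250 in edgeR's quasi-likelihood test. *Anxa4* was also UP with any 1 sample left out, between 0.79 and 1.19.

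*Anxa5* encodes the annexin used as a probe for phosphatidylserine on dying cells. It had 64.5 and 73.5 CPM in the control samples and 131 and 86.0 CPM in the *Ash1L* shRNA samples. Sample 1 was well above the controls and sample 2 was 1.25-fold above their mean. *Anxa5* had a log2 fold change of 0.65 (SE 0.21), with a P of 0.0199 and an adjusted p of 0.260 in edgeR's quasi-likelihood test. Without *Ash1L* shRNA sample 1 the log2 fold change was 0.31 and *Anxa5* was no longer UP, and it was not UP without control sample 1 (0.57) or control sample 2 (0.75).

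*Anxa6*, the largest annexin protein, known from endosomes, had the highest CPM of the members. It measured 127 and 133 CPM in the control samples and 160 and 140 CPM in the *Ash1L* shRNA samples. The 2 groups did not overlap, but the exact Poisson 95% intervals of the counts of *Ash1L* shRNA sample 2 (from 134.6 CPM) and control sample 2 (up to 137.1 CPM) did. The log2 fold change was 0.20 (SE 0.12), below the 1.2-fold limit, and the adjusted p was 0.414 in edgeR's quasi-likelihood test. Without *Ash1L* shRNA sample 2 it was 0.30 and passed both limits.

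*Anxa2* forms a complex with S100a10 at the plasma membrane, where it binds tissue plasminogen activator. Its level was 10.4 and 15.3 CPM in the control samples and 15.6 and 38.8 CPM in the *Ash1L* shRNA samples. Sample 2 alone was far above the controls, while sample 1 was level with control sample 2. *Anxa2* had a log2 fold change of 1.06 (SE 0.46), with a P of 0.0661 and an adjusted p of 0.321 in edgeR's quasi-likelihood test. It was 1.57 (UP) without *Ash1L* shRNA sample 1, 1.38 without control sample 2, 0.84 without control sample 1 and 0.26 without *Ash1L* shRNA sample 2.

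*Anxa1*, a glucocorticoid-induced protein that restrains inflammation through formyl peptide receptors, was scarce. Its counts were 28 and 65 in the control samples and 60 and 81 in the *Ash1L* shRNA samples, or 1.98, 1.85, 2.19 and 3.91 CPM. Only *Ash1L* shRNA sample 2 was separated from the controls. The log2 fold change was 0.66 (SE 0.40), with an adjusted p of 0.421 in edgeR's quasi-likelihood test. It was 0.20 without *Ash1L* shRNA sample 2 and 1.03 (UP) without *Ash1L* shRNA sample 1.

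Among the S100 genes, *S100a6* and *S100a11* were UP. *S100a6* encodes calcyclin, which binds annexins and the protein encoded by *Cacybp*. It had 16.9 and 19.5 CPM in the control samples and 25.01 and 49.3 CPM in the *Ash1L* shRNA samples. Both *Ash1L* shRNA samples were above the controls, and sample 2 was 1.97-fold above sample 1. *S100a6* had a log2 fold change of 1.02 (SE 0.32), with a P of 0.0195 and an adjusted p of 0.260 in edgeR's quasi-likelihood test. It was 0.45 without *Ash1L* shRNA sample 2 and 1.43 without *Ash1L* shRNA sample 1, both UP. Without control sample 1 (0.94) or control sample 2 (1.13) it was not UP.

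*S100a11*, which encodes a partner of annexin A1, had the largest fold change of the 10 and few counts, with 6 and 16 in the control samples and 33 and 45 in the *Ash1L* shRNA samples. These were 0.425 and 0.456 CPM in the control samples, compared with 1.205 and 2.17 CPM. The *Ash1L* shRNA samples were 2.74-fold and 4.93-fold above the control mean. *S100a11* had a log2 fold change of 1.90 (SE 0.52), with a P of 0.00942 and an adjusted p of 0.255 in edgeR's quasi-likelihood test. Without control sample 2 it was 1.96 and no longer UP. In GENCODE vM21, 41.1% of the 50-base stretches of *S100a11* transcripts are shared with transcripts of other loci, chief among them *Gm12854*, *Gm7665* and *Gm29240*, so its count is uncertain where reads from these copies were split or dropped.

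*S100a10*, also named p11, is the S100 protein that binds annexin A2 and has lost the ability to bind calcium. It had 24.4 and 26.1 CPM in the control samples and 26.3 and 53.6 CPM in the *Ash1L* shRNA samples. Sample 1 was level with the controls and sample 2 was 2.12-fold above their mean. The log2 fold change was 0.66 (SE 0.32), with an adjusted p of 0.351 in edgeR's quasi-likelihood test. It was 0.06 without *Ash1L* shRNA sample 2 and 1.08 (UP) without *Ash1L* shRNA sample 1.

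*S100a4*, a regulator of nonmuscle myosin, was the only member with a lower mean in *Ash1L* shRNA samples. Its counts were 40 and 158 in the control samples and 66 and 60 in the *Ash1L* shRNA samples, or 2.83, 4.50, 2.41 and 2.895 CPM. The groups overlapped, since *Ash1L* shRNA sample 2 was slightly above control sample 1. *S100a4* had a log2 fold change of -0.49 (SE 0.35), with an adjusted p of 0.488 in edgeR's quasi-likelihood test, and it was -0.10 without control sample 2. In GENCODE vM21, 302 of its 584 exonic bases also belong to *Gm42674* on the same strand.

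The members divided by which *Ash1L* shRNA sample was higher. *Anxa1*, *Anxa2*, *Anxa3*, *S100a4*, *S100a6*, *S100a10* and *S100a11* were higher in sample 2 than in sample 1, by 1.14-fold in *Anxa3* to 2.50-fold in *Anxa2*. *Anxa4*, *Anxa5* and *Anxa6* were lower in sample 2, at 0.758, 0.657 and 0.872 of sample 1. Between the control samples, the ratio of sample 2 to sample 1 ran from 0.833 in *Anxa4* to 1.59 in *S100a4*. Against the control samples, the median log2 deviation of the 10 members was 0.38 in *Ash1L* shRNA sample 1 and 1.03 in sample 2. Among all UP genes, 80.8% were higher in sample 2 than in sample 1. Exact Poisson 95% intervals, which cover counting error only, were compared between the lowest *Ash1L* shRNA and the highest control sample. They were apart in 5 of the 9 members that did not overlap. These were *Anxa3*, *Anxa4*, *Anxa5*, *S100a6* and *S100a11*, the same 5 that were UP. The intervals and the UP calls rest on the same counts, so neither is separate support for the other. For *S100a11*, the wider interval of control sample 1 (up to 0.925 CPM) still met that of *Ash1L* shRNA sample 1 (from 0.829 CPM). The share of all genes with intervals apart was not measured.

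**Figure D2:**
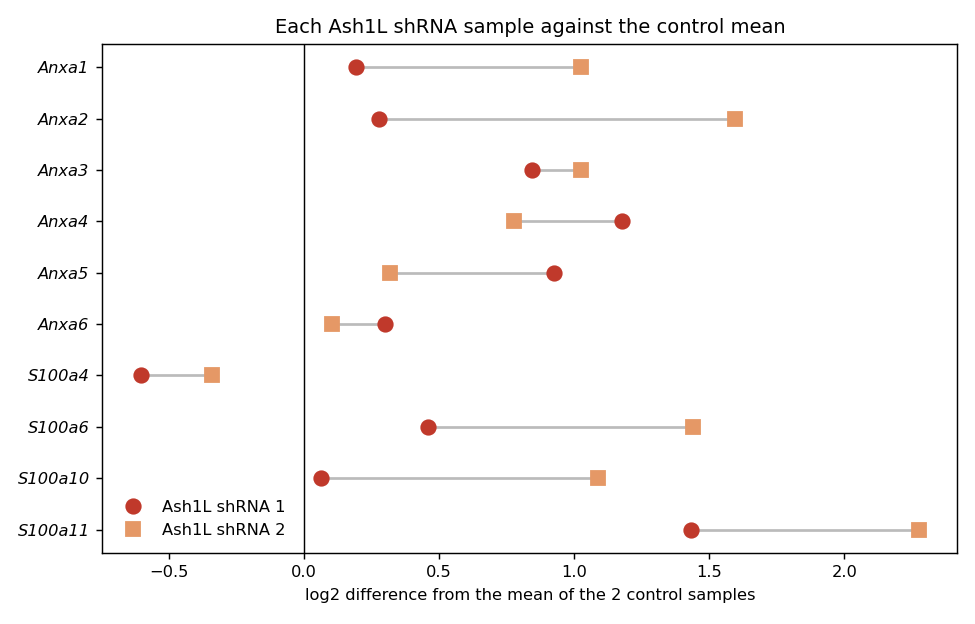
Log2 difference of each *Ash1L* shRNA sample from the mean of the 2 control samples, 1 row for each member, with circles for sample 1 and squares for sample 2. *S100a10* runs from 0.06 in sample 1 to 1.09 in sample 2, whereas *Anxa4* and *Anxa5* are higher in sample 1, at 1.18 and 0.92.

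Levels of different genes were compared per length, as CPM per kilobase of annotated exon. In control samples, *Anxa6* at 44.4 ± 1.45 (SD, n = 2) and *Anxa5* at 38.8 ± 3.59 (SD, n = 2) CPM per kilobase led the members. *S100a10* at 20.8 ± 0.98 and *S100a6* at 13.3 ± 1.38 CPM per kilobase (SD, n = 2) followed. *S100a4*, *Anxa3*, *Anxa2* and *Anxa4* had levels of 6.28 to 1.82 CPM per kilobase, and *S100a11* and *Anxa1* were the lowest at 0.862 and 0.659. The neighbours *S100a4* (± 2.02) and *Anxa3* (± 0.20) and the neighbours *Anxa3* and *Anxa2* (± 0.92) were within the sum of their SDs of each other. In *Ash1L* shRNA samples, *Anxa5* at 61.1 ± 17.9 and *Anxa6* at 51.2 ± 4.96 CPM per kilobase (SD, n = 2) were not separated beyond their spread.

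A list of 18 other annexin and S100 genes, left once the members had been chosen, gave the family around the members. Since that choice was made with earlier results of these data known, the list is not an independent background. *S100a2* was not in that list, and its counts were 0 and 0 in the control samples and 1 and 6 in the *Ash1L* shRNA samples, under the filter. Of these 18, 10 passed the filter. *Anxa11*, *S100a3* and *S100a16* were UP, 3 of 10 tested compared with 8.61% of all genes, and none was DOWN (8.28% of all genes). None of the 3 was UP without control sample 2, and *S100a3* was not UP without control sample 1 or without *Ash1L* shRNA sample 2. The median log2 fold change of the 10 was 0.32, and 6 were above 0, whereas the median was 0.19 over the 11 tested without *Ash1L* shRNA sample 2. Both *Ash1L* shRNA samples lay above both controls for 4 of them (26.5% of all genes) and below both controls for 1, *Anxa7* (26.8% of all genes).

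*S100a16*, an S100 gene expressed in many tissues, had 49.7 and 43.0 CPM in the control samples and 61.9 and 83.1 CPM in the *Ash1L* shRNA samples. Its log2 fold change was 0.65 (SE 0.17), with a P of 0.00839 and an adjusted p of 0.254 in edgeR's quasi-likelihood test. *Anxa11*, an annexin that tethers RNA granules to lysosomes, had 23.3 and 17.6 CPM in the control samples and 30.6 and 28.5 CPM in the *Ash1L* shRNA samples. Both genes were higher in each *Ash1L* shRNA sample than in each control. The log2 fold change of *Anxa11* was 0.54 (SE 0.17), with an adjusted p of 0.260 in edgeR's quasi-likelihood test, and 16.2% of its 50-base stretches are shared with other annotated loci, among them *Gm2260* and *Gm2274*. *S100a3* counts were 8 and 10 in the control samples and 22 and 112 in the *Ash1L* shRNA samples, highest by far in sample 2, and its log2 fold change was 2.95 (SE 1.01, adjusted p 0.262 in edgeR's quasi-likelihood test). It was 1.04 without *Ash1L* shRNA sample 2, 3.42 without control sample 1 and 2.42 without control sample 2, not UP in any of these.

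*S100b*, the S100 gene of astrocytes and oligodendrocytes, had 91.9 and 92.8 CPM in the control samples and 92.5 and 60.1 CPM in the *Ash1L* shRNA samples. Only sample 2 was below the range of the controls, and the log2 fold change was -0.28 (SE 0.21, adjusted p 0.513 in edgeR's quasi-likelihood test). *Anxa7* had 82.4 and 109 CPM in the control samples and 76.0 and 74.1 CPM in the *Ash1L* shRNA samples, with a log2 fold change of -0.35 (SE 0.15, adjusted p 0.311 in edgeR's quasi-likelihood test). *S100a1*, *S100a13*, *S100a7a*, *Anxa9* and *Anxa13* had log2 fold changes of -0.03, 0.30, 1.85, -0.09 and 0.34 and none was UP. For *S100a7a* the control counts were 10 and 8, and the *Ash1L* shRNA counts were 15 and 52. The 8 genes under the filter were *Anxa8*, *Anxa10*, *S100a5*, *S100a8*, *S100a9*, *S100a14*, *S100g* and *S100z*. *S100a8*, a calprotectin gene of neutrophils, had counts of 7, 7, 2 and 3 in control samples 1 and 2 and *Ash1L* shRNA samples 1 and 2. Its partner *S100a9* had counts of 5, 11, 2 and 8 in the same order.

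**Figure D3:**
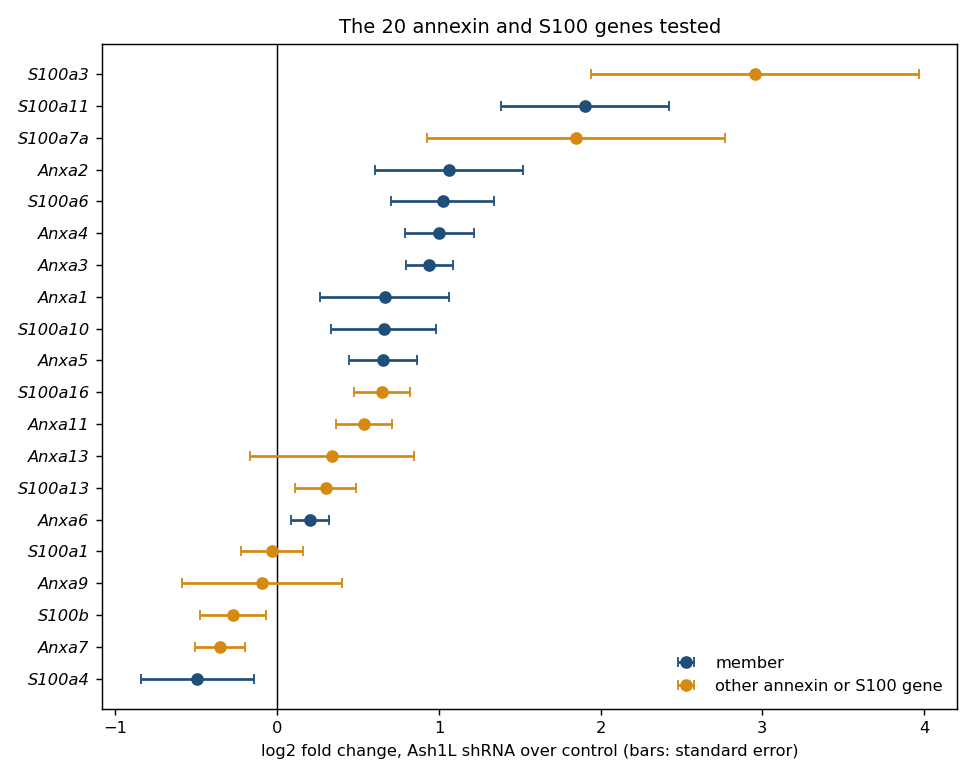
Log2 fold change of *Ash1L* shRNA over control samples for the 20 annexin and S100 genes tested, with standard errors as bars, in order of size and with members and other genes in different colours. *S100a3* and *S100a11* are the highest at 2.95 and 1.90, with the bar of *S100a3* reaching 1.01 to each side, and *S100a4* is the lowest at -0.49.

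Of the S100 genes, 14 lie on chromosome 3 (mm10), 12 of them within 184688 bases from *S100a1* to *S100a9*, and *S100a11* and *S100a10* lie further along the chromosome, 28792 bases from each other. Of the 14, 9 were tested, 4 were UP (8.61% of all genes) and 6 were higher in both *Ash1L* shRNA samples (26.5% of all genes). Their median log2 fold change was 0.695 without control sample 1 (10 tested) and 0.705 without control sample 2 (9 tested). It was 1.08 without *Ash1L* shRNA sample 1 (9 tested) and 0.40 without *Ash1L* shRNA sample 2 (10 tested). Fewer were UP with any sample left out but *Ash1L* shRNA sample 1. *S100a4* (log2 fold change -0.49, not past the test) lies between *S100a3* (2.95) and *S100a6* (1.02), with the scarcely detected *S100a5* before the latter. *S100a11* (chromosome 3 from 93520488 to 93526287) and *S100a10* (chromosome 3 from 93555080 to 93564643) had log2 fold changes of 1.90 and 0.66. The annexin members lie on chromosomes 19, 9, 5, 6, 3 and 11, in the order *Anxa1* to *Anxa6*, and *Anxa5* at 36448923 to 36475894 of chromosome 3 is far from the S100 genes.

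Binding partners and receptors of these proteins were taken as a list of 22 genes, of which 16 were tested. Of the 16, *Plat* and *Cacybp* were UP (8.61% of all genes) and *Trpv6*, a calcium channel bound by the annexin A2 and S100a10 complex, was DOWN (8.28% of all genes). The median log2 fold change was 0.24. *Cacybp* was UP without *Ash1L* shRNA sample 1 but not without any other sample, and *Trpv6* was DOWN without *Ash1L* shRNA sample 2 but not without any other sample. *Plat* encodes tissue plasminogen activator, a ligand of the annexin A2 complex, and had 48.7 and 39.6 CPM in the control samples and 61.7 and 117 CPM in the *Ash1L* shRNA samples. As for *Anxa2* and *S100a10*, sample 2 was the higher by far. The log2 fold change of *Plat* was 1.02 (SE 0.31), with an adjusted p of 0.260 in edgeR's quasi-likelihood test. It was 0.49 (UP) without *Ash1L* shRNA sample 2 and 0.87 (not UP) without control sample 2. *Cacybp*, which encodes the calcyclin-binding protein, had 72.4 and 72.6 CPM in the control samples and 83.3 and 94.0 CPM in the *Ash1L* shRNA samples, which is 0.29 (SE 0.12) on the log2 scale.

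*Myh9*, the nonmuscle myosin heavy chain that S100a4 binds, had 223 and 240 CPM in the control samples and 257 and 401 CPM in the *Ash1L* shRNA samples. Its log2 fold change was 0.51 (SE 0.21, adjusted p 0.301 in edgeR's quasi-likelihood test), and it was 0.15 without *Ash1L* shRNA sample 2 and 0.79 (UP) without sample 1. *Ahnak*, a scaffold for the annexin A2 and S100a10 complex, had a log2 fold change of -0.04 (SE 0.18), and its levels overlapped between groups. *Sugt1*, which binds calcyclin, had one of 0.24 (SE 0.11), *Ctsb* one of 0.32 (SE 0.20) and *Hltf*, which binds the same complex in the nucleus, one of -0.08 (SE 0.15). *Trpv6* had 20.8 and 20.8 CPM in the control samples and 15.5 and 16.6 CPM in the *Ash1L* shRNA samples. The formyl peptide receptor genes *Fpr1* and *Fpr2* had at most 14 counts in any sample, and *Fpr3* had 0 counts in all 4.

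Since these genes are expressed by several cell types, lists of cell type markers were measured in the same samples. Of the 8 astrocyte markers, 7 were DOWN (8.28% of all genes) and below both controls in each *Ash1L* shRNA sample (26.8% of all genes). The summed level of the 8 was 5255 and 5543 CPM in the control samples and 4136 and 2988 CPM in the *Ash1L* shRNA samples. Leaving out 1 sample leaves 1 sample in a group. The median log2 fold change of the 8 then ran from -1.12 (without *Ash1L* shRNA sample 1) to -0.54 (without *Ash1L* shRNA sample 2). Fewer of them were DOWN without either control sample. Of the 6 cortical excitatory neuron markers, *Tbr1*, *Neurod6* and *Camk2a* were DOWN (8.28% of all genes). Below both controls in each *Ash1L* shRNA sample were 5 of the 6 (26.8% of all genes), and 0 had a log2 fold change above 0 (49.7% of all genes). The median log2 fold change of the 6 was -0.43 and -0.34 without control samples 1 and 2. It was -0.65 and -0.25 without *Ash1L* shRNA samples 1 and 2. Fewer were DOWN with any sample left out but *Ash1L* shRNA sample 1. Of the 12 reactive astrocyte markers, 10 were above 0 (49.7% of all genes) and *Serpina3n* and *Osmr* were UP (8.61% of all genes). The sums over the 12 were 520 and 587 CPM in controls and 602 and 702 CPM in *Ash1L* shRNA samples. The median log2 fold change of the 12 was 0.60 and 0.51 without control samples 1 and 2, with fewer UP. It was 0.43 and 0.15 without *Ash1L* shRNA samples 1 and 2. *Gfap*, the intermediate filament of reactive astrocytes, had 319, 352, 350 and 322 CPM in control samples 1 and 2 and *Ash1L* shRNA samples 1 and 2. Microglia markers divided the *Ash1L* shRNA samples, with sums of 747 and 770 CPM in the controls, 958 CPM in sample 1 and 386 CPM in sample 2, and 0 of 8 were UP or DOWN. The median log2 fold change of the 8 microglia markers was -0.95 without *Ash1L* shRNA sample 1 and 0.45 without sample 2, each resting on 1 *Ash1L* shRNA sample. A sum higher in sample 1 than in sample 2 was not particular to microglia markers. The astrocyte, cortical excitatory neuron, oligodendrocyte, pan-neuronal, endothelial, and infiltrating monocyte and neutrophil lists had it too. The reactive astrocyte, striatal neuron, and choroid plexus and ependyma lists were higher in sample 2. The mural list (205 and 204 CPM in samples 1 and 2) and the leptomeningeal fibroblast list (180 and 183 CPM) were nearly level. *Anxa4*, *Anxa5* and *Anxa6* were higher in sample 1 and *Anxa3* in sample 2, and a link to any list was not tested.

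Infiltrating monocyte and neutrophil markers had sums of 99.7 and 119 CPM in the controls and 84.0 and 41.0 CPM in *Ash1L* shRNA samples. Of the 7 tested, 3 were DOWN (8.28% of all genes) and *Mpo*, at under 1 CPM, was UP (8.61% of all genes). Leptomeningeal fibroblast markers had sums of 119 and 185 CPM in the controls and 180 and 183 CPM in *Ash1L* shRNA samples. Of these 10, 2 were UP and 2 DOWN (8.61% and 8.28% of all genes). Endothelial and mural markers had sums within 0.93 to 1.10 of the control mean in both *Ash1L* shRNA samples. Striatal neuron markers were 73.0 and 87.1 CPM in sum in the controls, 81.9 CPM in *Ash1L* shRNA sample 1 and 143 CPM in sample 2. Choroid plexus and ependyma markers were scarce, with sums from 9.42 to 24.1 CPM, the highest in *Ash1L* shRNA sample 2, and *Ttr* was at 0.146 to 1.37 CPM. Oligodendrocyte markers had sums from 2496 to 2974 CPM and pan-neuronal markers from 5721 to 7355 CPM, each the lowest in *Ash1L* shRNA sample 2. The part of these differences in the levels of annexin and S100 genes was not tested.

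**Figure D4:**
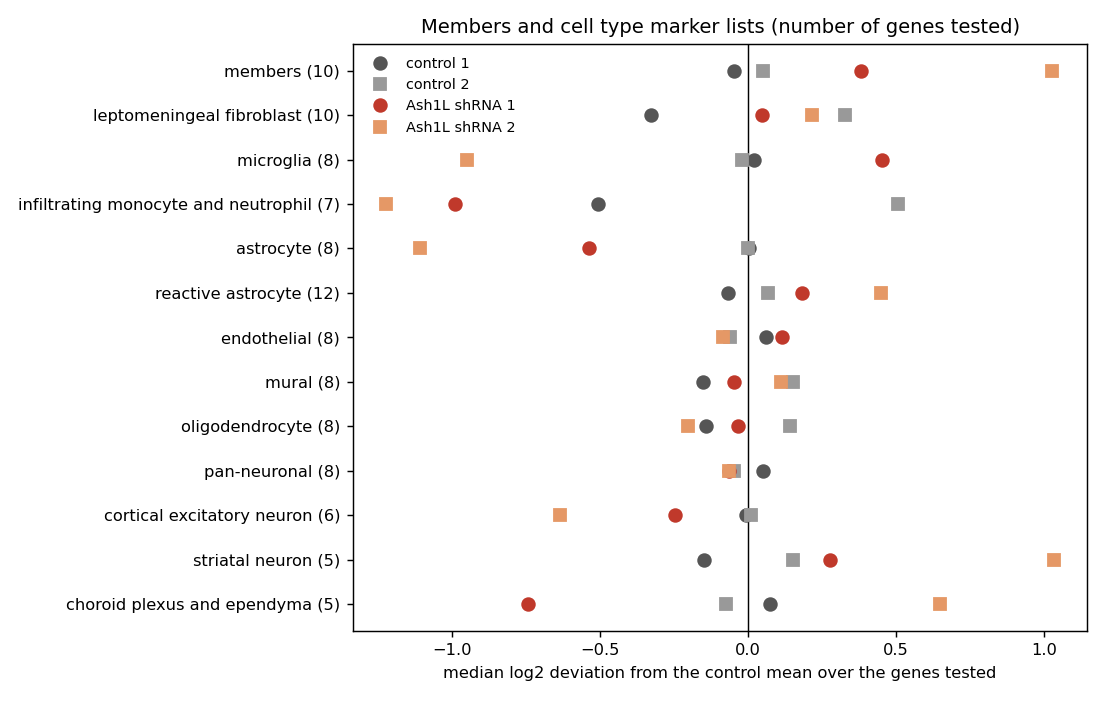
Median log2 deviation from the control mean, over the genes tested, of the 10 members and of 12 cell type marker lists, with 1 point for each sample and the number of genes in brackets. The members are at 0.38 and 1.03 in *Ash1L* shRNA samples 1 and 2, whereas astrocyte markers are at -0.54 and -1.11 and microglia markers at 0.45 and -0.95.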

How the data were processed

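The values deposited by the authors are raw read counts for each gene symbol, not normalized. By the methods of the study, paired-end reads from rRNA-depleted stranded libraries were aligned to mm10 with RNA STAR and counted with featureCounts, whereas the labels name Cutadapt and TopHat2 and the file headers name STAR. The strand setting of the counting is not given in the sources used here. Total counts ran from 14251190 to 35764874. Counts were filtered with filterByExpr, scaled with TMM and tested with the quasi-likelihood F test of edgeR 4.0.16 (R 4.3.3), *Ash1L* shRNA against control, with adjustment over 16232 genes. SE was obtained from the log2 fold change and the F statistic (log2 fold change over root F). UP and DOWN use the limits of the study, a P under 0.05 and a 1.2-fold change. CPM of all samples are TMM-normalized, and sample differences add 0.01 CPM. Poisson intervals cover counting error only. With 2 samples a group, an exact permutation test cannot reach a two-sided p below 0.333. The edgeR p-values rest on the spread between these samples, estimated with information shared across genes. By the methods of the study each sample is a pool, so this is not a spread between single mice.

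The members and lists were chosen with earlier results of these data known. The genes named are all members, the family genes tested, and of 22 binding partners the 6 of highest level and any UP or DOWN; *Fpr1*, *Fpr2*, *Fpr3* and single markers were named after their values were seen. Exon length, GC content and overlaps came from GENCODE vM21, and 93.7% of genes tested had a length. Samples of a group differed by 14.8 (control) and 42.3 (*Ash1L* shRNA) chi-square per degree of freedom, more than counting error alone gives. This cannot tell whether samples of a group shared mice. The fits were also run on simulated counts. Recovery was required there only for changes larger than those of the members, so the requirement did not cover changes of their size. Alternatives were RLE, upper-quartile and library-size scaling, other filters, DESeq2 1.42.0, the likelihood ratio test, a replicate block, length and GC offsets, a 1.5-fold limit, and leaving out each sample.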

Additional observations from a re-analysis of the deposited data

How the results depend on the processing

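The limits of these results are 2 samples a group, low counts in *Anxa1*, *S100a4* and *S100a11*, and unequal *Ash1L* shRNA samples. Under other scalings, filters, offsets and tests, 9 of the members tested stayed above both controls (8 of 9 with at least 10 counts in every sample, where *S100a11* was not tested) and 4 to 7 were UP. The count with an adjusted p under 0.05 was 0 in the quasi-likelihood test and 3 in both DESeq2 and the likelihood ratio test of edgeR, where 420 and 479 of all genes passed. The median of the other annexin and S100 genes was 0.14 with at least 10 counts in every sample, where 6 were tested. With an offset for exonic length, *Ash1l* had a log2 fold change of -0.55 and no longer passed P under 0.05; the cause was not tested.

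With each sample left out, where a lone sample is assumed to vary like the other group, 2 (without control sample 2) to 7 (without *Ash1L* shRNA sample 1) members were UP. Between 0 and 6 passed the adjusted limit, 6 without *Ash1L* shRNA sample 1, where 2502 of all genes did. The members' median ran from 0.38 (without *Ash1L* shRNA sample 2) to 1.03 (without sample 1), and 0 (without control sample 2) to 4 other family genes were UP, with medians from 0.19 to 0.38. *Ash1l* ran from -0.97 to -0.31 and lost P under 0.05 with 3 of the 4 samples left out, that is, each but *Ash1L* shRNA sample 1. For genes and lists other than the members and *Ash1l*, leaving out samples in turn was added after the data had been seen, except for the count UP and the median of the other annexin and S100 genes.

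Same-numbered samples share only a number, and their deviations correlated at -0.13. With the replicate block, 6 members were UP, *Anxa2* being added (0.98), and 0 passed the adjusted limit. Crossed pairs, tried after the data had been seen, gave counts of 5 and 0.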
